A study of Mus musculus with 18 samples.

Results

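The early differentiation step of Thap1 null oligodendrocyte progenitor cells (OPCs) is described here through 6 of the 18 RNA sequencing libraries of the series. They were taken by their labels: the 3 mouse null clones 3F, D6 and 7F, each sampled as OPCs (day 0) and after 2 days of differentiation (DIV2, days in vitro), with the stages compared within each clone. The OPC samples were in OPC growth medium with PDGF-AA, and the DIV2 samples had been differentiated with the thyroid hormone T3, for which the labels give 40 ug/ml. Control clones D7, D3 and E8 went through the same steps and served for comparison (6 libraries). All groups are clonal lines of OPCs derived from primary neural stem cells, and the day 4 libraries entered only the rescaling and the estimate of the spread. The labels do not state how the null clones were made, and each clone gave 1 library per stage, so n = 3 clones per group and genotype cannot be told apart from differences among clonal lines.

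OPCs divide under PDGF-AA, which signals through the receptor Pdgfra, and the withdrawal of the growth factor together with thyroid hormone leads them to leave the cell cycle and differentiate. They pass through a premyelinating stage, marked by genes such as Enpp6 and Bcas1, before they switch on the proteins of compact myelin and the lipid synthesis that the membrane needs. THAP1 is a zinc-finger transcription factor whose mutations cause a form of dystonia.

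Values are TPM, a length-corrected abundance in which every library has an equal total, summed per protein-coding gene and rescaled by the median of ratios, called rescaled TPM. Protein-coding genes held 19.1% to 32.1% of all TPM in the 6 null libraries, the lowest share in clone D6 as OPCs, but 5.05% to 9.0% in the control OPC libraries and 29.4% to 31.8% in the control DIV2 libraries. Without rescaling, on the deposited scale, the median change of all genes was 0.36 in the null and 1.99 in the control, so control falls in particular are falls relative to that shift. TPM keeps no sequencing depth, so depth is unknown, and the precision of a value rests on the 3 clones. Changes are in log2(rescaled TPM + 1), DIV2 minus OPC, and a gene is said to rise or fall where the adjusted p of the moderated linear model (limma, clone as block, Benjamini-Hochberg over all genes tested) is under 0.05. Values of a group are given in the clone order 3F, D6 and 7F for the null and D7, D3 and E8 for the control. The RNA is of whole cultures, so fewer cells of a type and less RNA per cell cannot be told apart. Whether a clone's libraries came from separate cultures is not stated.

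The control OPC library of clone D3 stood apart: its summed mitosis genes were 89.9 rescaled TPM, against 1103 in D7 and 913 in E8, and it was the lowest control OPC library for 32 of the 32 mitosis genes. Values without D3 are therefore given beside a difference between the genotypes where leaving it out changes a call, and beside some others. Where none are given, the size of the difference may still move without D3. Thap1 (ENSMUSG00000037214, chr8:26158141-26164151, plus strand, GRCm38) measured 0.486, 0.778 and 0.596 as OPCs and 0.346, 0.644 and 0.691 at DIV2 in the null clones and 4.41, 4.33 and 3.34 as OPCs and 1.94, 2.51 and 2.8 at DIV2 in the control clones. The null values lie below every control value, and the null change was -0.06 (SE 0.14, adjusted p = 0.756). These null values were all under 1 rescaled TPM. Thap1 therefore passed the filter on low values (a mean of at least 1 over the 18 libraries) only through other libraries. Its null test says nothing about the null clones. In the control clones Thap1 changed by -0.56 (SE 0.18, adjusted p = 0.0273), a call lost under 7 of 13 alternatives and turned to a rise on the deposited scale. Oligodendrocyte lineage genes such as Sox10 and Olig2 were abundant in every library. Summed markers of mesenchymal cells (10 genes, 0.632 to 1.53 rescaled TPM), endothelial cells (6 genes, 0.169 to 0.728) and microglia (10 genes, 0.361 to 2.96) were low in all 6 null libraries.

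The step from OPC to DIV2 changed a large part of the transcriptome of the null clones. Of 10409 genes tested, 2948 rose (28.3%) and 2672 fell (25.7%), with a median change of 0.015 over all genes. With a change of at least 1 as well, 790 rose (7.59%) and 777 fell (7.46%). The values of the 3 clones did not overlap between stages for 5744 genes (55.2%). Across the genes tested, the changes of clones 3F and D6 correlated with r = 0.851, those of 3F and 7F with r = 0.881 and those of D6 and 7F with r = 0.91, which is a description across genes that share their length and abundance.

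Most of the large changes of the control clones also took place in the null clones. In the control, 2505 genes rose (24.1%) and 2189 fell (21.0%), with a median of 0.034. The null calls come from a fit of the 9 null libraries and the control calls from a fit of all 18. With all 18 libraries fitted the null had 3987 calls, 2132 rises and 1855 falls. Counts of calls, here and in the lists, are thus not on equal terms between the genotypes. Of the 913 that rose there by at least 1, 823 (90.1%) rose in the null, 89 were not called and 1, the transferrin receptor Tfrc, fell. Of the 874 that fell by at least 1, 765 (87.5%) fell in the null, 100 were not called and 9 rose. Seen from the null, 652 of the 790 rises of at least 1 (82.5%) also rose in the control, and 673 of the 777 falls (86.6%) also fell. The median null change over the 913 control rises was 1.16 against 1.47 in the control, and over the 874 control falls -1.34 against -1.48. Over the 790 null rises it was 1.49 in the null against 1.41 in the control, and over the 777 null falls -1.57 against -1.45, so in each case the genotype that chose the genes had the larger median. A direct test of the difference between the changes (null change minus control change, the interaction) called 95 genes (0.913%), 61 positive and 34 negative. That count was not stable: it was 2 to 37 when a null clone was left out, and 143, 698 (6.71%) and 11 without control D7, D3 and E8.

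**Figure D1:**
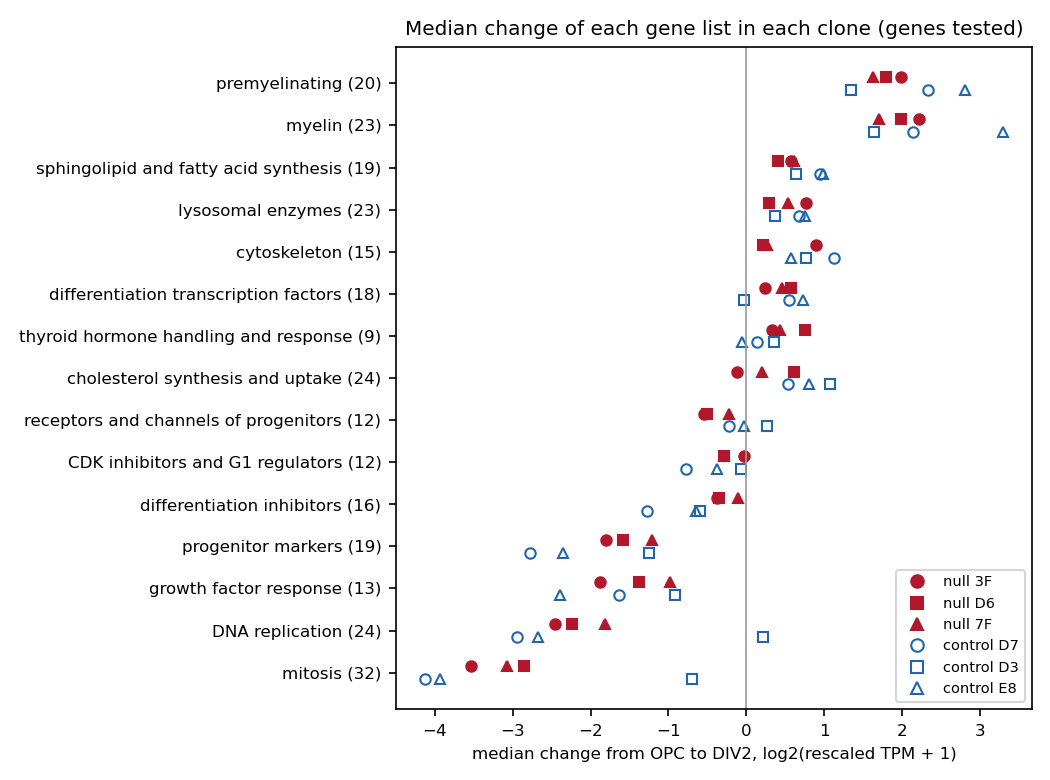
Median change from OPC to DIV2 of each gene list (log2 of rescaled TPM + 1, horizontal axis) in each null clone (filled red) and control clone (open blue), with the number of genes tested per list in parentheses. The null clones lie near each other in the mitosis list (-3.54 to -2.86), whereas control D3 (-0.70) lies apart from D7 and E8.

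The 15 largest rises in the null clones included members of the gene lists described below, among them Mbp, Mag, Enpp6, Ninj2, Mog and Tppp. The first was Col20a1, a collagen gene, at 0.698, 0.958 and 0.699 as OPCs and 103, 139 and 107 at DIV2, a change of 6.03 (SE 0.17, adjusted p = 3.58e-07). Kcna1, a voltage-gated potassium channel, measured 0.394, 0.576 and 0.362 as OPCs and 83.8, 68.4 and 92.9 at DIV2, a change of 5.83 (SE 0.14, adjusted p = 3.18e-07). No OPC value reached any DIV2 value for either gene, which the rule for the 15 largest rises required. All OPC values of both were under 1 rescaled TPM. With 0.1 in place of 1 added before the log, Kcna1 changed by 7.24 and Col20a1 by 7.04, so their order and sizes rest on this setting. Other genes outside the lists were Rasgef1b (5.21), the prostaglandin D synthase Ptgds (4.94), the melanin synthesis enzyme Dct (4.47), the glycerol-3-phosphate dehydrogenase Gpd1 (4.45), Tmem163 (4.09) and Btbd17 (4.09). Ptgds reached 575, 293 and 341 in the null and 57.9, 87.8 and 54.1 in the control at DIV2. Its change was 4.94 in the null and 2.95 in the control, and the difference between these was not called (adjusted p = 0.283).

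All 15 of the largest falls were clustered histone genes, whose transcripts are made in S phase to package new DNA. These genes share sequence: 14 of the 15 share at least 10% of their 31-base words with another gene, so their single values are uncertain. The exception, the linker histone Hist1h1b, measured 255, 319 and 219 as OPCs and 5.56, 11 and 6.97 at DIV2, a change of -4.94 (SE 0.26, adjusted p = 3.21e-06). Its stages did not overlap, which the rule for the 15 largest falls required. Over the 64 clustered histone genes tested, a group chosen after these values were seen, 60 fell and 4 rose, with a median of -3.76. Of all genes, 25.7% fell and 28.3% rose. Of the 64, 55 share at least 10% of their 31-base words with another gene, so most single values are uncertain. The summed level of the 64 was 12438, 14194 and 11794 as OPCs and 1043, 1405 and 1018 at DIV2.

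Cell cycle genes fell in the null clones as a body. All 32 genes of the mitosis list fell, against 25.7% of all genes, with a median of -3.14 against 0.015. The summed level was 992, 1071 and 982 as OPCs and 40.3, 109.6 and 65.6 at DIV2, so the stages did not overlap. In the control the sum was 1103, 89.9 and 913 as OPCs and 23.8, 39.0 and 25.3 at DIV2. Every null DIV2 sum thus lay above every control DIV2 sum, with 3F (40.3) close to control D3 (39.0). Clone D6 kept the highest level at DIV2 in 31 of the 32 genes. Promoters of mitotic genes are known for the CHR element (TTTGAA) and CCAAT boxes, which tie expression to cell division. The 100 bases before the RefSeq start (GRCm38.p6) of 4 members are shown because the members fell together. Capitals mark TTTGAA and CCAAT on either strand (TTCAAA and ATTGG on the other).
Cdk1, chr10:69352913-69353012, minus strand: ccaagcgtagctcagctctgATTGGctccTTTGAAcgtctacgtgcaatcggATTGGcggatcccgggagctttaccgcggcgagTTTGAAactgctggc
Top2a, chr11:99024190-99024289, minus strand: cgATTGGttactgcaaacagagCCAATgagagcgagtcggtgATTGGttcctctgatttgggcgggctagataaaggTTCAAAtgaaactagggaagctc
Cdc20, chr4:118437344-118437443, minus strand: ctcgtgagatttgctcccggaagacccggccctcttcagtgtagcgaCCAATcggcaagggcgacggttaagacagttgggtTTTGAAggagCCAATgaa
Ube2c, chr2:164769829-164769928, plus strand: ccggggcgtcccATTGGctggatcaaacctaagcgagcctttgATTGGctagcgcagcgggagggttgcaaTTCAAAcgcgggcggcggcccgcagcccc

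The promoter table (300 bases each, 250 before to 50 after the start) held 27 of the 32 mitosis genes. In their 28 promoters the letters of CHR were found in 20 (71.4%) and those of CCAAT in 22 (78.6%), against 17.9% and 37.4% of the 32851 promoters of the table. In the DNA replication list the shares were 12.5% and 50%, in the cholesterol list 5.0% and 80.0%, and in the myelin list 6.45% and 45.2%. A match of letters is not a binding site.

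Cdk1, the kinase that drives entry into mitosis (ENSMUSG00000019942, chr10:69335146-69352938, minus strand), measured 54.7, 69.7 and 58.8 as OPCs and 1.97, 7.44 and 3.59 at DIV2, a change of -3.67 (SE 0.23, adjusted p = 6.40e-06). Top2a, the topoisomerase that untangles replicated DNA, went from 152, 151 and 142 to 4.59, 12.8 and 7.9, a change of -4.08 (SE 0.24, adjusted p = 5.17e-06). Mki67, the source of the Ki-67 antigen of dividing cells, measured 30.4, 17.7 and 15.7 as OPCs and 0.574, 1.52 and 1.06 at DIV2. Every DIV2 value of these genes lay below every OPC value, with D6 the highest at DIV2. The spindle checkpoint target Cdc20 (-3.12, 27.4% shared words) and the ubiquitin-conjugating enzyme Ube2c (-3.61) fell as well. In the control clones 31 of the 32 fell, against 21.0% of all genes, with a median of -2.89. Without control D3 the median was -4.05. The interaction called 1 mitosis gene with all clones. Without D3 it called 10, against 6.71% of all genes, with a median difference of 1.02 over the list.

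That 1 gene was Pttg1, the securin that guards sister chromatid separation (ENSMUSG00000020415, chr11:43420250-43426251, minus strand). It measured 69.9, 63.6 and 75.6 as OPCs and 1.58, 6.39 and 3.22 at DIV2 in the null clones, a change of -4.03 (SE 0.31, adjusted p = 2.15e-05). In the control clones it measured 4.04, 1.17 and 3.6 as OPCs and 5.19, 4.73 and 4.64 at DIV2, a change of 0.66 (SE 0.32, adjusted p = 0.11). Every control OPC value lay far below every null OPC value, so the difference in change, -4.69 (SE 0.45, adjusted p = 0.00196), goes with a difference between the OPC levels. The labels name no strain for the clones, so a difference in genetic background between null and control clones cannot be told apart from genotype in these levels. The difference was called under 17 of 17 alternatives, and its size ran from -6.06 to -4.32 over them.

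DNA replication genes fell too. All 24 tested fell in the null, with a median of -2.19, while 20 fell in the control (median -1.75), or 23 without D3 (median -2.58). Of all genes, 25.7% fell in the null and 21.0% in the control. Leaving out D7 or E8 gave 7 or 5 control falls. The median difference (null minus control) was -0.45 with no gene called, and turned to 0.53 without D3, where Rrm2, Cdt1, Ccne1 and Uhrf1 were called (4 of 24, against 6.71% of all genes). Tk1, the thymidine kinase of the salvage pathway, measured 34.9, 27.7 and 22.9 as OPCs and 0.979, 1.54 and 1.07 at DIV2, a change of -3.74 (SE 0.17, adjusted p = 2.10e-06). Mcm6, part of the replicative helicase, measured 26.5, 27.7 and 16.9 as OPCs and 1.01, 2.3 and 1.75 at DIV2, a change of -3.20 (SE 0.20, adjusted p = 6.17e-06). Neither gene overlapped between stages in the null clones.

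The regulators of G1 were less uniform: of 12 tested, 5 fell and 3 rose, against 25.7% and 28.3% of all genes, so the rises are near the overall share, and 1 rose without clone 7F. Ccnd1, cyclin D1, which growth factors induce, measured 61, 71.9 and 44.4 as OPCs and 3.25, 3.69 and 3.83 at DIV2, a change of -3.69 (SE 0.26, adjusted p = 1.35e-05). The CDK inhibitor Cdkn1a (p21) measured 0.906, 0.775 and 1.31 as OPCs and 3.74, 2.16 and 3.13 at DIV2, a change of 1.0 (SE 0.17, adjusted p = 0.00172), and stood higher at DIV2 in all 3 null clones. In the control clones Cdkn1a measured 4.03, 1.37 and 20.9 as OPCs and 1.04, 1.9 and 3.2 at DIV2, highest in E8 as OPCs, with a change of -1.13 (SE 0.45, adjusted p = 0.0576). The difference between the genotypes was 2.13 and was not called (adjusted p = 0.123), but it was called without D3, at 2.84 (adjusted p = 0.0147). Cdkn1b (p27), the inhibitor long tied to the OPC division clock, changed by 0.15 (SE 0.10, adjusted p = 0.248). The retinoblastoma genes Rb1 (0.43) and Rbl2 (0.35) rose, and Rbl1 (-1.70) and the inhibitor Cdkn2c (-1.42) fell.

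**Figure D2:**
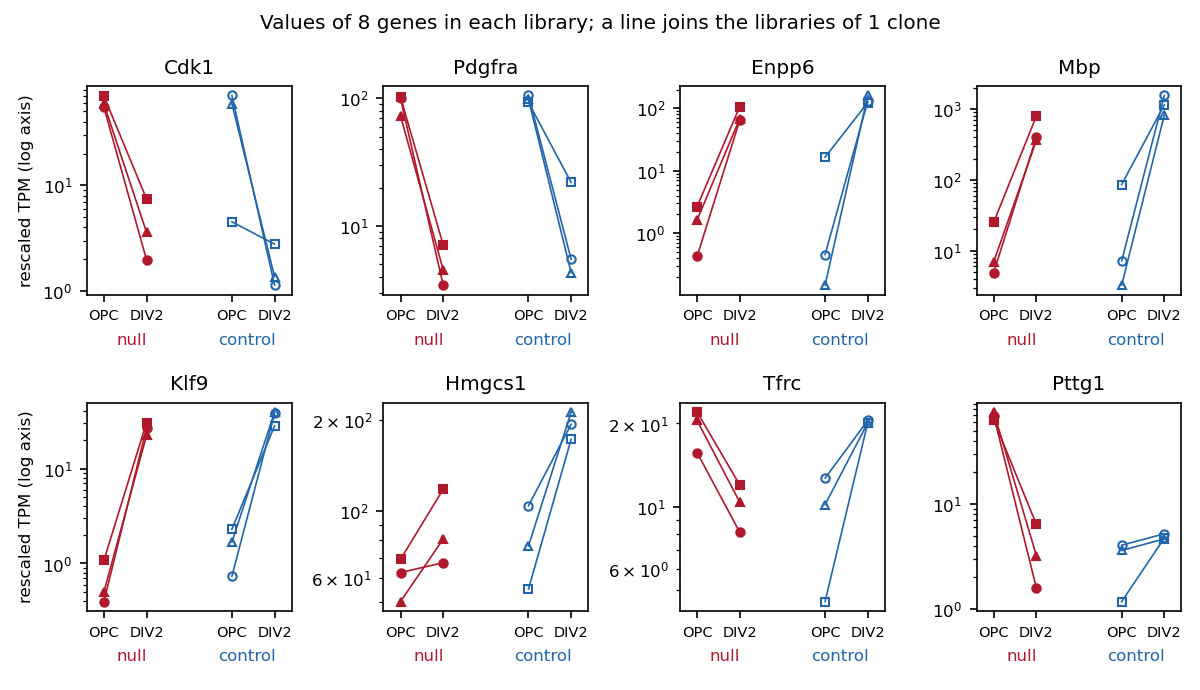
Rescaled TPM (log axis) of 8 genes in the OPC and DIV2 library of each clone, null in filled red (circle 3F, square D6, triangle 7F) and control in open blue (circle D7, square D3, triangle E8), with 1 line per clone. Cdk1, Pdgfra, Enpp6, Mbp and Klf9 move the same way in all 6 clones, whereas Tfrc falls in each null clone and climbs in each control clone, and Pttg1 falls in each null clone and is low in every control library.

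Genes that growth factors induce fell in the null clones. Of the 13 tested genes of this list, feedback inhibitors and transcription factors induced by receptor tyrosine kinase signalling, 11 fell and none rose (9 and 2 on the deposited scale), with a median of -1.32. In the control all 13 fell (0 on the deposited scale), with a median of -1.74. Of all genes, 25.7% fell and 28.3% rose in the null, and 21.0% fell in the control. Spry4, a feedback inhibitor of the pathway, measured 4.21, 2.33 and 0.972 as OPCs and 0.105, 0.198 and 0.134 at DIV2, a change of -1.50 (SE 0.26, adjusted p = 0.00149). Dusp6, the phosphatase that turns ERK off, measured 4.44, 5.71 and 2.62 as OPCs and 1.1, 0.996 and 1.22 at DIV2, a change of -1.28 (SE 0.24, adjusted p = 0.00255). The difference between the genotypes for Dusp6 was 1.39 (adjusted p = 0.249), and 2.11 (adjusted p = 0.031) without D3. The ETS factor Etv4 changed by -2.39 (SE 0.28, adjusted p = 2.14e-04). The members not called in the null were the immediate early genes Fos, which changed by 0.24 (SE 0.17, adjusted p = 0.249), and Junb, which changed by 0.46 (SE 0.24, adjusted p = 0.143). In the control they changed by -1.22 and -1.44, and for neither was the difference called (adjusted p = 0.151 and 0.0991).

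Most progenitor markers fell as well. Of 19 tested, 14 fell and 3 rose in the null (median -1.27), against 15 and 2 in the control (median -2.12). Of all genes, 25.7% fell and 28.3% rose in the null. The median difference was 0.45 with no gene called. Without D3 it was 0.86 with 3 called, Megf11 and Xylt1 among them, against 6.71% of all genes. Pdgfra, the PDGF receptor (ENSMUSG00000029231, chr5:75152292-75198215, plus strand), measured 99.6, 102 and 72.8 as OPCs and 3.45, 7.12 and 4.55 at DIV2, a change of -3.97 (SE 0.20, adjusted p = 2.73e-06). Fabp7, a fatty acid binding protein of neural progenitors, measured 386, 742 and 395 as OPCs and 17.3, 57.1 and 36 at DIV2, a change of -3.83 (SE 0.18, adjusted p = 2.17e-06). Cspg4, the NG2 proteoglycan of the OPC surface, measured 11.5, 6.24 and 4.56 as OPCs and 0.726, 1.41 and 0.744 at DIV2, a change of -2.04 (SE 0.24, adjusted p = 1.97e-04). For all 3 genes every DIV2 value lay below every OPC value. Nes (nestin, -2.86), the cadherin Pcdh15 (-3.38) and the phosphatase Ptprz1 (-2.47) fell too. Vcan (versican) changed by -0.28 (SE 0.17, adjusted p = 0.196) and Traf4 by -0.48 (SE 0.18, adjusted p = 0.0514), and neither was called. The 3 members that rose were Gpr37l1 (2.13), Ednrb, the endothelin receptor B (1.14), and Tnr, tenascin R (1.06). Ednrb measured 24.4, 35.8 and 34.6 as OPCs and 67.8, 62.7 and 80 at DIV2 in the null and 18.7, 90.9 and 19 as OPCs and 11.2, 57.4 and 25.4 at DIV2 in the control, where D3 was far above D7 and E8 at both stages.

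Most premyelinating genes rose. Of its 20 genes 16 rose and none fell in the null (median 1.72), and 16 rose in the control (median 2.17), against 28.3% and 24.1% of all genes. The median difference was -0.27 with 1 gene called. Without D3 it was -0.68 with 4 called, against 6.71% of all genes. The 4 were Itpr2, Bmp4, Cnksr3 and Kif19a. Enpp6, a choline phosphodiesterase that marks newly forming oligodendrocytes (ENSMUSG00000038173, chr8:46986887-47096762, plus strand), measured 0.425, 2.66 and 1.63 as OPCs and 64.8, 107 and 68.7 at DIV2, a change of 5.05 (SE 0.16, adjusted p = 5.29e-07). Bcas1, another marker of that stage, measured 87.9, 113 and 143 as OPCs and 518, 495 and 485 at DIV2, a change of 2.14 (SE 0.17, adjusted p = 2.48e-05). Sirt2, a deacetylase of the myelin sheath, measured 5.3, 9.94 and 6.67 as OPCs and 44.2, 63 and 46 at DIV2, a change of 2.67 (SE 0.11, adjusted p = 1.49e-06). The difference between the genotypes was -0.44 for Enpp6, -0.14 for Bcas1 and -0.34 for Sirt2. Without D3 it was -1.77, -0.84 and -0.70, and none of these was called either way. Frmd4a (2.88), Kif19a (3.11), Mpzl1 (2.60) and Cnksr3 (2.54) also rose, and Gpr17, the receptor that peaks in committed precursors, rose by 0.53 (adjusted p = 0.0415). The call of Gpr17 was lost with all 18 libraries fitted, with all transcript biotypes, with no filter, without D6 (0.42) and without 7F (0.62).

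For some premyelinating genes the null change was smaller in value than the control change. Cemip2 measured 3.18, 3.04 and 1.65 as OPCs and 3.4, 3.83 and 2.3 at DIV2 in the null, a change of 0.22 (SE 0.12, adjusted p = 0.163). In the control it measured 1.66, 1.52 and 3.36 as OPCs and 40, 9.24 and 11.8 at DIV2, a change of 2.51 (SE 0.58, adjusted p = 0.00505), and every control DIV2 value was above every null value. Itpr2, a calcium release channel, measured 4.87, 4.29 and 3.67 as OPCs and 6.23, 14.8 and 7.11 at DIV2 in the null and 2.86, 8.39 and 1.46 as OPCs and 30.4, 33.1 and 23.4 at DIV2 in the control. It rose in both, by 0.89 (adjusted p = 0.00909) and 2.73. The differences in change were -2.29 (SE 0.82, adjusted p = 0.182) for Cemip2 and -1.84 (SE 0.41, adjusted p = 0.0646) for Itpr2, so neither was called with all clones. Without D3 the difference of Itpr2 was called, at -2.27 (adjusted p = 0.0184), and that of Cemip2 was not, at -2.53 (adjusted p = 0.124). Prom1 (prominin) changed by 0.31 in the null (adjusted p = 0.127) and by 1.49 in the control (adjusted p = 0.0303).

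Bmp4, a secreted ligand that holds back oligodendrocyte differentiation (ENSMUSG00000021835, chr14:46383520-46390669, minus strand), differed between the genotypes. It measured 0.222, 0.715 and 0.722 as OPCs and 6.73, 5.88 and 6.27 at DIV2 in the null, a change of 2.25 (SE 0.22, adjusted p = 7.20e-05). In the control it measured 0.718, 7.01 and 1.82 as OPCs and 0.178, 5.12 and 0.309 at DIV2, a change of -0.68 (SE 0.32, adjusted p = 0.0995). It stood higher at DIV2 in each null clone and lower in each control clone, with control D3 high at both stages, and the difference was 2.93 (SE 0.45, adjusted p = 0.0178). That call held under 12 of 16 alternatives.

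Most myelin genes rose in the null clones. Of 23 tested, 16 rose and 1 fell (median 1.97), and in the control 20 rose and 1 fell (median 2.33, or 2.97 without D3), against rises of 28.3% and 24.1% among all genes. The median difference was -0.46 with no gene called, and -0.92 without D3 with 4 called (against 6.71% of all genes), Cnp and Jam3 among them. Mbp, myelin basic protein, measured 4.93, 25.2 and 6.99 as OPCs and 400.1, 794 and 360.2 at DIV2, a change of 5.50 (SE 0.27, adjusted p = 2.39e-06). Mag, the adhesion protein of the inner sheath, measured 0.816, 3.42 and 1.62 as OPCs and 129.7, 124 and 112 at DIV2, a change of 5.47 (SE 0.22, adjusted p = 1.28e-06). D6 had the highest Mbp at both stages, and no OPC value of these genes came near a DIV2 value.

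Mog, of the outermost sheath, measured 0.189, 0.125 and 0.218 as OPCs and 24.4, 35.7 and 25.2 at DIV2, a change of 4.62 (SE 0.23, adjusted p = 2.53e-06). Control Mbp reached 1549, 1146 and 822 at DIV2 and control Mag 194, 177 and 229.6, above each null value, while the control range of Mog took in the null values. The differences in change were -0.79 for Mbp, -1.16 for Mag and -0.11 for Mog, and none was called (adjusted p from 0.407 to 0.957). Without D3 they were -2.08, -1.55 and -0.87, again not called. Ninj2 rose by 4.63 in the null and 2.99 in the control. Cnp (1.97), the tight junction protein Cldn11 (2.69), Nfasc (3.37), Opalin (2.50) and Tmem88b (3.0) rose too. The difference of Cnp was -0.92 (adjusted p = 0.579), and -1.87 (adjusted p = 0.0373) without D3.

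Some myelin genes not called in the null rose in the control. Tmem98, which binds Myrf, changed by 0.16 and 1.70, and the junction gene Jam3 by -0.27 and 0.73. With all clones neither difference was called (adjusted p = 0.254 and 0.117). Without D3 that of Jam3 was called, at -1.18 (adjusted p = 0.0305), and that of Tmem98 was not, at -1.74 (adjusted p = 0.123). Mobp, a small basic protein of myelin, measured 0.0345, 0.0513 and 0.0588 as OPCs and 0.0578, 0.214 and 0.0732 at DIV2 in the null and 0, 0 and 0.172 as OPCs and 2.06, 2.13 and 1.42 at DIV2 in the control. Its mean over the 6 null libraries was 0.0816, and it passed the filter on low values (a mean of at least 1 rescaled TPM over the 18 libraries) only through other libraries of the series, so its tests say nothing about the null clones. Pmp22, a myelin protein of Schwann cells, fell by 2.55 in the null and 2.09 in the control. Mal and Ermn were below that filter.

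**Figure D3:**
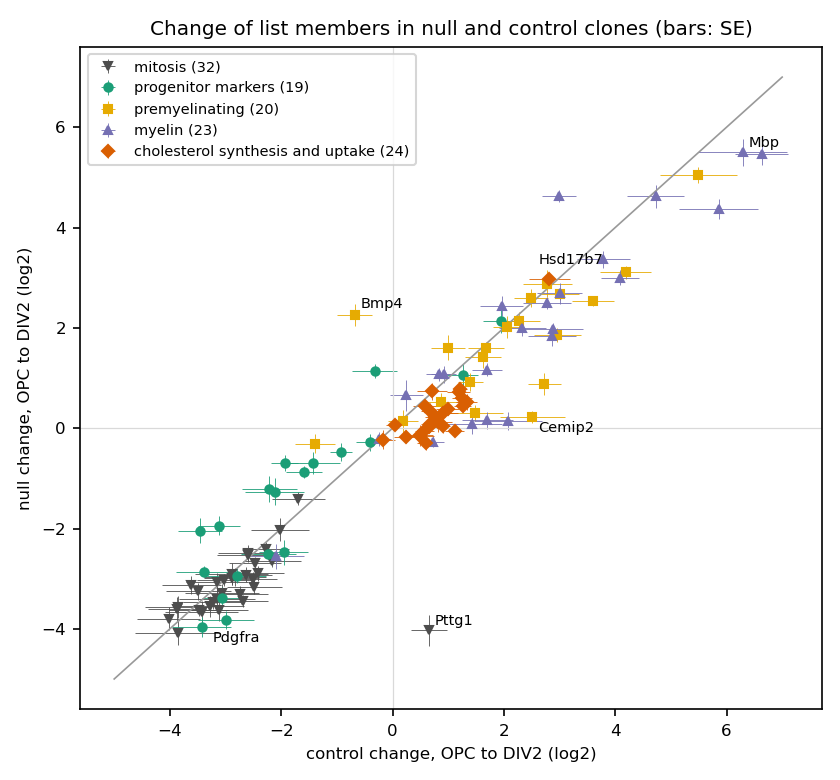
Change from OPC to DIV2 in the control clones (horizontal axis) and the null clones (vertical axis) for the genes tested of 5 lists, in log2(rescaled TPM + 1), with standard errors as bars and the line of equal change in grey. Most genes lie near the line, and Pttg1, Bmp4 and Cemip2 lie far from it. Below it lie 21 of 24 cholesterol, 17 of 23 myelin, 15 of 20 premyelinating, 21 of 32 mitosis and 7 of 19 progenitor genes. The median difference was -0.60 for cholesterol, -0.46 for myelin and -0.27 for premyelinating genes. Without D3 it was -0.41, -0.92 and -0.68.

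Transcription factors of the lineage changed in both directions. Of 18 tested 10 rose and 3 fell in the null, against 28.3% and 25.7% of all genes, and 6 rose without D6 or without 7F. Klf9, a Kruppel-like factor directly induced by thyroid hormone (ENSMUSG00000033863, chr19:23141226-23168134, plus strand), measured 0.397, 1.08 and 0.501 as OPCs and 26.9, 30.6 and 22.4 at DIV2, a change of 4.07 (SE 0.10, adjusted p = 3.18e-07). Sox8 measured 3.57, 8.01 and 5.24 as OPCs and 19.7, 41.2 and 22.5 at DIV2, a change of 2.11 (SE 0.19, adjusted p = 4.14e-05), and Zfp536 measured 1.47, 3.36 and 1.52 as OPCs and 15.9, 17.3 and 14.5 at DIV2, a change of 2.49 (SE 0.20, adjusted p = 2.55e-05). Their stages did not overlap in the null clones, and each of them also rose in the control. St18 (1.08), Klf13 (1.23), Nkx6-2 (1.27), Zeb2 (0.54) and Zfp488 (0.78, which shares 18.2% of its 31-base words with other genes) rose, while Olig1 (-1.68), Olig2 (-1.42) and the chromatin remodeller Chd7 (-0.88) fell. Sox10, the factor that maintains the lineage, measured 54.3, 60.1 and 72.1 as OPCs and 73.6, 70.4 and 69.4 at DIV2, a change of 0.20 (SE 0.11, adjusted p = 0.149). Myrf, the membrane-bound factor that activates myelin genes, measured 7.98, 1.74 and 2.26 as OPCs and 5.53, 5.52 and 4.9 at DIV2 in the null. The OPC value of 3F was above all null DIV2 values, and the change was 0.55 (SE 0.33, adjusted p = 0.197). Control Myrf measured 2.01, 2.48 and 0.754 as OPCs and 8.53, 7.08 and 9.24 at DIV2, a change of 1.81 (SE 0.38, adjusted p = 0.00309), and the difference (-1.26, adjusted p = 0.259) was not called.

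Inhibitors of differentiation fell in part. Of 16 tested 7 fell and 2 rose in the null (median -0.22, and 3 and 3 on the deposited scale), against 10 and 1 in the control (median -1.05). Of all genes, 25.7% fell and 28.3% rose in the null. Hes5, the Notch effector, measured 11.4, 15.9 and 9.22 as OPCs and 0.39, 1.35 and 0.705 at DIV2, a change of -2.86 (SE 0.23, adjusted p = 2.65e-05). Sox9 (-1.85), Nfib (-1.36), the receptor Notch1 (-0.88) and its ligand Jag1 (-0.44) fell. Id2, which blocks basic helix-loop-helix factors, measured 18.2, 24.2 and 21.7 as OPCs and 49.1, 27.7 and 46.7 at DIV2, a rise of 0.88 (SE 0.22, adjusted p = 0.00917) with every DIV2 value above every OPC value. In the control Id2 measured 17.4, 58.1 and 46.8 as OPCs and 3.91, 35.9 and 20.6 at DIV2, a change of -1.25 (SE 0.35, adjusted p = 0.013), lower at DIV2 within each clone (1.31 on the deposited scale, a rise). Myc measured 16.9, 11.6 and 16.7 as OPCs and 14.5, 8.45 and 11.9 at DIV2 in the null and 30.2, 30.5 and 25.8 as OPCs and 4.25, 7.43 and 4.41 at DIV2 in the control, changes of -0.36 and -2.26. Both Myc changes turned positive on the deposited scale. The differences between the genotypes just missed the threshold, at adjusted p = 0.0686 for Id2 and 0.0513 for Myc. They were called without D3, at 2.41 (adjusted p = 0.0379) and 2.08 (adjusted p = 0.0228).

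The thyroid hormone targets Klf9 and Hr rose in the null clones. Of the 16 genes of the list 9 were tested. Of these, 5 rose and none fell in the null, and 3 rose and 2 fell in the control. Of all genes, 28.3% rose and 25.7% fell in the null and 24.1% and 21.0% in the control, so the control counts of the list are near those shares. Hr (hairless), a receptor corepressor and T3 target, measured 1.19, 0.908 and 0.689 as OPCs and 22.8, 16.5 and 22.5 at DIV2, a change of 3.48 (SE 0.14, adjusted p = 1.49e-06). Thra, the receptor TR alpha, measured 31.6, 28.9 and 33.4 as OPCs and 93.1, 94.5 and 85.1 at DIV2, a change of 1.51 (SE 0.13, adjusted p = 2.91e-05). Every DIV2 value of Hr, Thra and Klf9 was above every OPC value in the null. The coactivator Ncoa1 (0.66) and the partner receptor Rxrb (0.47) rose, and Rxra (0.10, adjusted p = 0.48) was not called. The difference of Rxra between the genotypes was 1.01 (adjusted p = 0.113), and 1.36 (adjusted p = 0.0197) without D3.

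Cytoskeletal genes changed in both directions after rescaling: 7 of 15 rose and 4 fell (2 without D6), against 28.3% and 25.7% of all genes, so the falls are near the overall share. On the deposited scale 10 rose and 1 fell. Tppp, which nucleates microtubules in the processes, measured 2.8, 4.69 and 3.99 as OPCs and 96.2, 94.5 and 74.3 at DIV2, a change of 4.22 (SE 0.19, adjusted p = 1.83e-06). Sept4, a septin, measured 1.55, 2.95 and 2.43 as OPCs and 74.6, 33.2 and 40.8 at DIV2, a change of 3.87 (SE 0.36, adjusted p = 6.02e-05), and Map1b changed by 2.72 (SE 0.12, adjusted p = 1.92e-06). All 3 also rose in the control. Mapt, the microtubule protein tau (ENSMUSG00000018411, chr11:104231390-104332090, plus strand), measured 14.6, 21.1 and 30.3 as OPCs and 67.7, 53.1 and 59.1 at DIV2 in the null, a change of 1.46 (SE 0.20, adjusted p = 4.24e-04). In the control it measured 18.4, 23.9 and 10.2 as OPCs and 11.1, 11.5 and 8.52 at DIV2, a change of -0.64 (SE 0.22, adjusted p = 0.0322), so it stood higher at DIV2 in each null clone and lower in each control clone. The difference was 2.10 (SE 0.31, adjusted p = 0.0157) and was called under 12 of 17 alternatives. On the deposited scale control Mapt rose by 1.73 and the difference was 0.15. The falls were Stmn1 (-1.14, 30.3% shared words), Gsn (-0.76), Anln (-0.72) and Map4 (-0.56). On the deposited scale Gsn (-0.34), Anln (-0.37) and Map4 (-0.17) were not called. Anln was also not called with all 18 libraries fitted, without D6 or without 7F.

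Most tested genes of sphingolipid and fatty acid synthesis rose in both genotypes, with 12 of 19 genes in the null (median 0.61) and 12 in the control (median 0.87), and none fell. Rises made up 28.3% and 24.1% of all genes. Ugt8a, which makes the myelin lipid galactosylceramide, measured 28.5, 31.4 and 32 as OPCs and 222, 191 and 207 at DIV2, a change of 2.72 (SE 0.10, adjusted p = 9.40e-07). Fa2h, the fatty acid hydroxylase of the same lipids, measured 1.01, 0.354 and 0.782 as OPCs and 5.14, 3.97 and 4.3 at DIV2, a change of 1.69 (SE 0.10, adjusted p = 5.20e-06). The elongases Elovl7 (2.26) and Elovl1 (1.15), the sulfotransferase Gal3st1 (1.43), the ceramide synthase Cers2 (0.79) and the desaturase Degs1 (1.33) rose, while the fatty acid synthase Fasn changed by 0.25 (SE 0.15, adjusted p = 0.177).

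Changes of cholesterol synthesis and uptake genes were small in the null. Of 24 genes tested 9 rose and none fell (median 0.18 against 0.015 over all genes), 1 of them by at least 1. Of all genes, 28.3% rose in the null, 7.59% by at least 1, and 24.1% in the control. In the control 18 rose and none fell (median 0.73), or 14 without D3 (median 0.65). The null change was the smaller one for 21 of the 24 genes, with a median difference of -0.60 (-0.41 without D3) against -0.035 over all genes. The test of the difference called 1 of the 24, against 0.913% of all genes. Without D3 it called 2, Ebp and Tm7sf2, against 6.71% of all genes. The summed level was 508, 577 and 471 as OPCs and 512, 879 and 608 at DIV2 in the null, and 778, 409 and 671 and 1217, 936 and 1276 in the control. Every null DIV2 sum lay below every control DIV2 sum, and control D3 was the lowest control at both stages.

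The clones differed here. The median change of the list was -0.12 in 3F, 0.61 in D6 and 0.20 in 7F, and D6 was the highest at DIV2 for all 24 genes. Leaving out 3F, D6 or 7F gave 11, 3 or 5 rises. D6 also had the lowest protein-coding share as OPCs and the highest mitosis genes at DIV2, and the part of either in this result was not tested.

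Hsd17b7, a reductase of the late pathway, was the exception in size: it measured 3.56, 4.78 and 3.37 as OPCs and 33.2, 47.3 and 33 at DIV2 in the null, a change of 2.98 (SE 0.12, adjusted p = 1.49e-06), and changed by 2.82 in the control. Hmgcs1, which opens the pathway, measured 62.4, 69 and 50 as OPCs and 67.3, 118 and 80.6 at DIV2 in the null, a change of 0.52 (SE 0.16, adjusted p = 0.0236). In the control it measured 104, 55 and 76.5 as OPCs and 194, 173 and 213 at DIV2, a change of 1.33 (SE 0.19, adjusted p = 3.90e-04). All control DIV2 values of Hmgcs1 were above all null ones, but the difference in change was not called (adjusted p = 0.162). Ebp, a sterol isomerase (ENSMUSG00000031168, chrX:8185329-8193512, minus strand), measured 5.44, 6.67 and 4.42 as OPCs and 5.22, 6.75 and 4.03 at DIV2 in the null and 5.65, 2.14 and 2.7 as OPCs and 9.19, 6.56 and 9.39 at DIV2 in the control. Its null change was -0.05 (SE 0.09, adjusted p = 0.685), its control change 1.12 (SE 0.17, adjusted p = 4.17e-04), and the difference -1.17 (SE 0.23, adjusted p = 0.0455). That call held under 5 of 17 alternatives. Sqle (-0.05), Cyp51 (0.03) and Nsdhl (0.08) were not called in the null and rose in the control, by 0.57, 0.66 and 0.67. Idi1, Fdps, Fdft1, Acat2 and Tm7sf2 share at least 10% of their 31-base words with other genes, and their values are uncertain.

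**Figure D4:**
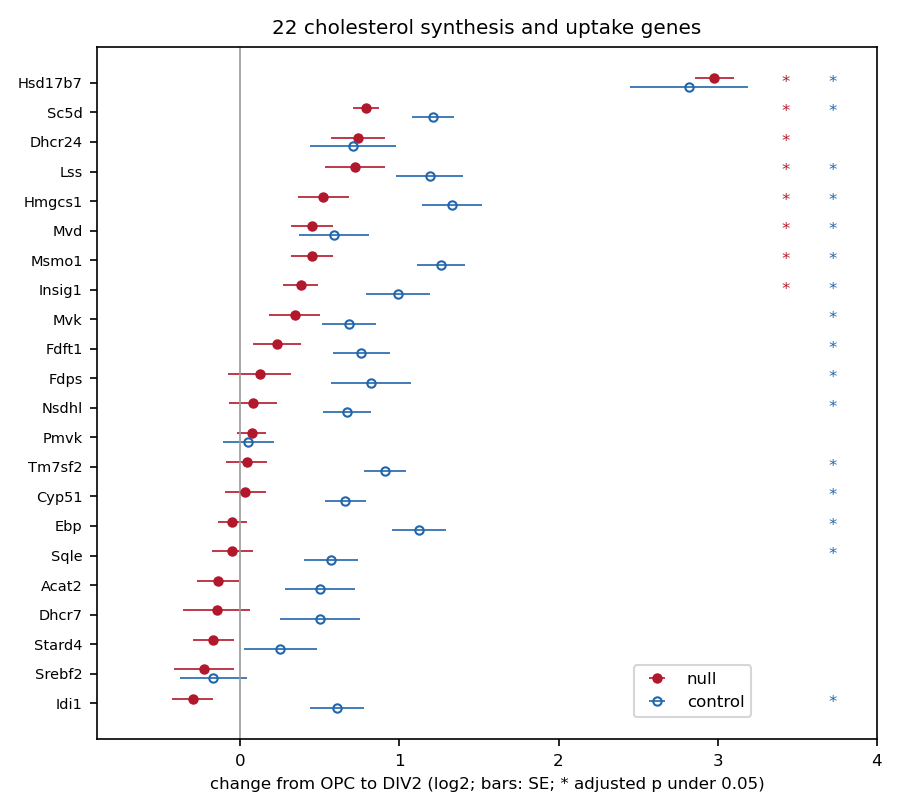
Change from OPC to DIV2 (log2 of rescaled TPM + 1, bars are standard errors) of 22 of the 24 cholesterol genes tested in the null (filled red) and control clones (open blue), with stars for adjusted p under 0.05 in each genotype. Most control points lie to the right of the null points, and Hsd17b7 is the only gene shown that rose by over 1 in the null.

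Of 6 iron genes tested 3 rose and 1 fell in the null (28.3% and 25.7% of all genes), and 1 rose without 7F. Tfrc, the transferrin receptor that takes up iron (ENSMUSG00000022797, chr16:32608920-32632794, plus strand), measured 15.7, 22 and 20.5 as OPCs and 8.1, 12 and 10.4 at DIV2 in the null, a change of -0.87 (SE 0.18, adjusted p = 0.00389). In the control it measured 12.7, 4.56 and 10.2 as OPCs and 20.5, 20.1 and 20.1 at DIV2, a change of 1.16 (SE 0.24, adjusted p = 0.00251). It was lower at DIV2 in each null clone and higher in each control clone, and the difference was -2.04 (SE 0.33, adjusted p = 0.0235). The difference of Tfrc was called under 12 of 17 alternatives, and its size ran from -3.89 to -1.65 over them. Trf (transferrin), which oligodendrocytes make and secrete, rose by 1.82 in the null and 3.99 in the control (difference -2.17, adjusted p = 0.0889, or -2.45 and 0.0378 without D3), but shares 74.2% of its 31-base words with other genes. The ferritin heavy chain Fth1 changed by 0.16 (SE 0.11, adjusted p = 0.259).

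Lysosomal enzymes rose in 13 of 23 cases and fell in 1 in the null (median 0.58), and rose in 12 in the control (median 0.56). Of all genes, 28.3% rose and 25.7% fell in the null and 24.1% rose in the control, and the 1 fall was not called without D6 or without 7F. Ctsl, cathepsin L, measured 17, 29.6 and 24.9 as OPCs and 90.7, 73.1 and 72.5 at DIV2, a change of 1.71 (SE 0.18, adjusted p = 1.28e-04). Psap, the precursor of the saposins that help break down sphingolipids, measured 65.1, 95.7 and 89.6 as OPCs and 267, 184 and 208 at DIV2, a change of 1.39 (SE 0.19, adjusted p = 4.06e-04). Lamp1 (1.30), Naglu (1.26), Ctsb (1.25), Arsb (1.23) and Hexa (1.16) rose and Galns fell (-0.39). Gusb, the beta-glucuronidase that degrades glycosaminoglycans, measured 0.577, 0.165 and 0.196 as OPCs and 0.331, 0.0482 and 0.18 at DIV2 in the null and 4.85, 4.36 and 4.03 as OPCs and 5.12, 4.19 and 2.76 at DIV2 in the control. It was low in all null libraries, and its change was not called in either genotype. Gusb passed the filter on low values only through other libraries, so its null test says nothing about the null clones. The limit on genetic background given for Pttg1 holds for its level too.

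Genes of chondroitin sulfate proteoglycans, which OPCs lay down in the matrix, moved both ways: 4 of 12 rose and 3 fell in the null, near the 28.3% and 25.7% of all genes. The chondroitin synthase Chsy3 measured 0.674, 0.714 and 0.558 as OPCs and 6.07, 3.55 and 4.24 at DIV2, a change of 1.75 (SE 0.15, adjusted p = 3.63e-05), and the sulfotransferase Chst3 measured 3.27, 3.33 and 3.12 as OPCs and 8.2, 6.81 and 8.04 at DIV2, a change of 1.03 (SE 0.12, adjusted p = 2.09e-04). Neither overlapped between stages. Bcan (brevican) rose by 1.04, and Ncan (neurocan) fell by 0.97.

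Among 12 receptors and channels 5 rose and 7 fell in the null (5 and 4 on the deposited scale), against 28.3% and 25.7% of all genes. The potassium channel Kcnd2 measured 9.19, 7.1 and 6.91 as OPCs and 0.747, 0.663 and 0.574 at DIV2, a change of -2.39 (SE 0.15, adjusted p = 6.40e-06). Lpar1, a lysophosphatidic acid receptor of maturing oligodendrocytes, measured 0.132, 0.293 and 0.109 as OPCs and 1.13, 3.87 and 1.3 at DIV2 in the null and 0.0631, 0.173 and 0 as OPCs and 13, 8.8 and 16.7 at DIV2 in the control. All control DIV2 values of Lpar1 were above all null ones, yet the difference in change, -2.35 (SE 0.50, adjusted p = 0.0584), was not called. Without D3 it was called, at -2.64 (adjusted p = 0.0279). Gpr37, a receptor of maturing oligodendrocytes, changed by 1.16 in the null and 2.75 in the control (adjusted p of the difference = 0.181). The glutamate receptor subunit Gria2 rose by 1.87, and Gria3 (-0.47) and Gria4 (-0.62) fell. Both falls lost their call with all 18 libraries fitted and on the deposited scale (-0.16 and -0.25). That of Gria3 was also lost without the block, without 3F (-0.32) and without D6 (-0.40).

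Markers of other cell types gave a mixed picture. Of 8 astrocyte genes tested 4 rose and 3 fell in the null (28.3% and 25.7% of all genes), with 1 fall without 7F, and the summed level of the list of 12 was 98.3, 128 and 124 as OPCs and 278, 272 and 288 at DIV2. S100b, which oligodendrocytes also express, measured 24.7, 52.8 and 55.5 as OPCs and 226, 216 and 237 at DIV2 and made up most of that sum at DIV2. Gfap, the astrocyte filament, measured 0.131, 1.58 and 0.203 as OPCs and 1.99, 6.39 and 3.2 at DIV2, a change of 1.58 (SE 0.32, adjusted p = 0.00343), while the glutamate transporter Slc1a3 changed by -2.25 (SE 0.17, adjusted p = 1.68e-05). The water channel Aqp4 stayed below 0.2 rescaled TPM in the null. Of 4 neuronal genes tested 2 rose, Tubb3 (2.46) and Elavl3 (1.65), Map2 fell (-0.93), and Rbfox3 (NeuN) was at or near 0. The summed neuron list of 12 was 89.6, 84.5 and 83 and 80.3, 106 and 101. The part of such cells in the changes above was not tested.

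The rule for the largest differences took called genes with a mean of at least 5 rescaled TPM over all OPC and DIV2 libraries. Their clone changes also could not overlap between genotypes. Of these, the 6 genes with the most positive and the 6 with the most negative difference, null minus control, are named. Bmp4, given above, fell short of that mean. Mfge8, a secreted protein that bridges phosphatidylserine to integrins, measured 6.3, 7.63 and 6.46 as OPCs and 96.9, 19 and 62.2 at DIV2 in the null and 5.38, 7.32 and 7.87 as OPCs and 1.9, 4.88 and 4.63 at DIV2 in the control, a difference of 3.45 (SE 0.57, adjusted p = 0.0235). Lbh, a transcription cofactor, measured 3.38, 4.33 and 4.98 as OPCs and 64.8, 35.2 and 57.9 at DIV2 in the null and 4.28, 10.1 and 11.8 as OPCs and 10.2, 29.8 and 11.9 at DIV2 in the control, a difference of 2.47 (SE 0.38, adjusted p = 0.0178). Tsku, a secreted leucine-rich protein, measured 8.15, 14.3 and 6.25 as OPCs and 9.53, 29.9 and 19 at DIV2 and 53.2, 64.3 and 66.3 as OPCs and 13, 10.1 and 10.9 at DIV2, a difference of 3.23 (SE 0.64, adjusted p = 0.0448). For each of these the changes of the 3 null clones lay above those of the 3 control clones, which the rule required. Over the alternatives the difference ran from 1.78 to 4.18 for Mfge8, 0.65 to 2.78 for Lbh and 1.02 to 3.58 for Tsku.

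Gpd1 (difference 3.07) and Dmrtb1 (2.60) belong to the same group, as does Gm20594 (4.93), which shares 10% of its words and was above 35 rescaled TPM in the control OPC libraries and at 0 in those at DIV2. On the negative side stood Pttg1 and Tfrc, given above, and Pfkl, a subunit of the glycolytic enzyme phosphofructokinase, at 10.2, 7.51 and 8.81 as OPCs and 5.07, 5.35 and 4.99 at DIV2 in the null and 6.83, 5.16 and 6.61 as OPCs and 8.53, 8.69 and 10.3 at DIV2 in the control, a difference of -1.17 (SE 0.17, adjusted p = 0.0157). Pgk1, the phosphoglycerate kinase of glycolysis (-1.72, 68.3% shared words), Lsm5 (-1.30, 39.7%) and 4921524J17Rik (-1.19, 11.6%) completed it. Both glycolytic genes stood lower at DIV2 in each null clone and higher in each control clone.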

How the data were processed

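The authors deposited 1 table of TPM per Ensembl transcript for all 18 libraries (93666 transcripts), from total RNA with a stranded, ribosomal RNA depleting kit per the labels' protocols. Beyond the submitters' processing notes, which name mm10, STAR and Picard, roles, quantifier and annotation are not given in the sources used here. Each TPM column sums to a fixed total over all biotypes. TPM was summed by gene name over the protein_coding rows (22305 names; 27 names turned into dates were restored by transcript identifier), rescaled by median of ratios over 12320 genes above 0 in every library, and taken as log2(value + 1). Genes with a mean of at least 1 over the 18 libraries were tested with limma 3.58.1 (R 4.3.3, eBayes with trend, clone as a fixed block): the null contrast over the 9 null libraries, the control contrast and the interaction over all 18. On simulated data with changes of 1 and 2, 88% and 99% of 100 changed genes each were recovered among 10409 genes, and 4.1% of calls were false. The changes were placed only in genes well above the filter as OPCs. Recovery of genes with low OPC values, or with as many changed genes as in the data, was not simulated.

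The pairing comes from the labels, which give each clone at every stage. Deviations from the group means correlated between the stages of a clone at 0.204 (3F), 0.407 (D6) and 0.239 (7F). The mean between different clones was -0.14. Because the deviations of the clones cancel out within each stage, that value follows from the others and is no separate evidence for the pairing. Shared 31-base words, coordinates and identifiers come from GENCODE release M21 (GRCm38), in which 96.6% of transcript identifiers were found, and genes sharing at least 10% are called uncertain. Promoters come from RefSeq. Some genes are not reported here. Members and gene lists were chosen with earlier results of these data known. Named are Thap1, list members and the 15 largest rises and falls (called, mean of at least 5, stages not overlapping). Also named are the 6 largest interactions each way within limits. These were called, had a mean of at least 5 over all OPC and DIV2 libraries, and had clone changes not overlapping between genotypes.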

Additional observations from a re-analysis of the deposited data

Results flagged for a closer look

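The change from OPC to DIV2 differed between null and control clones, by the interaction test with adjusted p under 0.05, for 15 of the genes named in the report. The difference is given as null change minus control change in log2, followed in parentheses by the number of alternatives under which it was called. More positive changes in the null were found for Gm20594 at 4.93 (8 of 17), Mfge8 at 3.45 (12 of 17), Tsku at 3.23 (8 of 17), Gpd1 at 3.07 (9 of 17), Bmp4 at 2.93 (12 of 16), Dmrtb1 at 2.60 (7 of 17), Lbh at 2.47 (11 of 17) and Mapt at 2.10 (12 of 17).

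More negative changes were found for Pttg1 at -4.69 (17 of 17), Tfrc at -2.04 (12 of 17), Pgk1 at -1.72 (13 of 17), Lsm5 at -1.30 (12 of 17), 4921524J17Rik at -1.19 (8 of 17), Ebp at -1.17 (5 of 17) and Pfkl at -1.17 (12 of 17). Gm20594, Pgk1, Lsm5 and 4921524J17Rik share at least 10% of their 31-base words with other genes.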

How the results depend on the processing

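The null calls (5620) stayed within 1.5 times under every alternative run except a mean of at least 5 (3731 of 6287 genes tested) and a further log2 change of at least 1 (1567), both of which test or admit fewer genes. Leaving out a null clone gave 3970 to 5160 calls. On the deposited scale 80.0% of the 4783 null calls were rises (3825 against 958), compared with 52.5% after rescaling. The control count (4694) became 9809 on the deposited scale (9734 rises), 1787 with a change of at least 1, and 3374 to 5186 without a clone. The interaction count (95) became 9092 on the deposited scale, 44 with a mean of at least 5, 44 with a pseudocount of 0.1, 13 with only the 12 libraries compared, and 2 to 698 without a clone. With no replicate block, that is without the pairing by clone, 4890 null, 4164 control and 29 interaction genes were called, and with a random block 5539, 4653 and 154. Without the block, rises of cholesterol genes fell from 9 to 5 in the null and from 18 to 11 in the control. The cause of these differences was not tested.

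Of the calls of named genes, null Myc reversed on the deposited scale (0.03), and control Rb1 with all transcript biotypes (-0.02). On the deposited scale, whose median control change is 1.99, these control falls turned positive, in log2: Ccne1 0.49, Cdkn2c 0.61, Chd7 1.75, Fos 1.26, Hes5 0.08, Id2 1.31, Jag1 0.69, Junb 0.71, Kcnd2 0.55, Lsm5 1.77, Map2 2.09, Mapt 1.73, Myc 0.22, Ncan 1.40, Nfib 0.70, Notch1 0.98, Olig1 1.48, Olig2 1.44, Ptprz1 0.64, Rxra 1.13, Slc1a3 0.72, Stmn1 1.35, Thap1 1.23, Traf4 1.73, Tsku 0.28. No named interaction reversed. Over all alternatives, the calls of named genes held in 1989 and were lost in 115 re-tests of the null contrast, against 1674 and 143 in the control and 158 and 96 for the interaction. Unknown depth limits the precision of low values.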
